A study of Mus musculus with 12 samples.

Results

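Collagens, laminins and integrins are the structural proteins of the extracellular matrix and the cell-surface receptors that bind it. In a table of 27179 Entrez gene IDs, 80 symbols belonged to these families by name, with 44 collagen chains, 11 laminin chains, 17 integrin alpha chains and 8 integrin beta chains. The 42 genes described here were those selected on their level, by a rule of at least 10 counts in at least 3 of the 12 libraries: 21 collagens, 5 laminins, 10 integrin alpha chains and 6 integrin beta chains. The level itself is therefore a description and was not tested. Of the 42 genes, 40 reached 10 counts in a library of all 4 groups, and the other two, Itga2b and Itga8, did so in 3 groups. All 42 passed the separate low-count filter of the tests.

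A collagen molecule is a triple helix of 3 alpha chains. Fibrillar collagens (types I, III, V, XI and XXVII) build fibrils, type IV forms the network of basement membranes, type VI forms beaded filaments, and types XII, XVI, XX and XXII attach to the surface of fibrils or to basement membranes. A laminin is a cross of 1 alpha, 1 beta and 1 gamma chain that nucleates basement membranes. An integrin pairs 1 alpha with 1 beta chain. The beta1 chain has the widest choice of partners, alpha-v chains bind fibronectin and vitronectin through beta1, beta3, beta5, beta6 or beta8, and beta2 and beta7 chains are best known from leukocytes.

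The RNA came from the mouse line MC38-idAdpgkG, a colon carcinoma of the C57BL/6 strain that carries a doxycycline-inducible Adpgk(R304M) neoantigen fused to turboGFP and degradable on addition of dTAG-13, a compound that brings tagged proteins to a ubiquitin ligase. Every group was kept in 20 ng/mL mouse interferon-gamma and harvested at 51 h. Control cells received nothing else, doxycycline cells received 1 µg/mL doxycycline for 51 h, dTAG-13 cells received 1 µM dTAG-13 for the last 3 h, and the fourth group received both agents on these schedules. Each group had 3 libraries, technical replicates of 1 biological sample, so every SD and p-value below measures the spread between libraries of 1 culture, and treatment and culture cannot be told apart. In such bulk RNA, fewer cells that express a gene and less RNA per cell cannot be told apart either. There was no sample without interferon-gamma. No cells without the transgene were included, so doxycycline itself and the induced transgene cannot be told apart. Whether the line is 1 clone is not given in the sources used here.

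The libraries held 22165538 to 32809573 counts. Adpgk, which the label of the doxycycline groups says was induced, stood at 162, 158 and 162 CPM (counts scaled to 1e6 per library, with TMM factors) in control and 177, 182 and 185 with dTAG-13. It stood at 1343, 1316 and 1355 CPM with doxycycline and 1378, 1351 and 1379 with both agents. Of 13 epithelial markers, 0 reached a mean of 1 CPM, and Epcam, Cdx2 and Cldn3 had no count in any library, which allows up to 0.135 CPM in the shallowest library (3 counts, covering counting error only). The summed epithelial level was 0.282 to 0.939 CPM over all libraries, so the defining epithelial genes of a colon carcinoma were absent or near 0. Among 13 fibroblast markers 4 reached 1 CPM. These were Col3a1, Dcn, Pdgfra and Pdgfrb, while Col1a1, Thy1, Fap and Postn did not exceed 6, 2, 1 and 1 counts in a library. The summed level of the fibroblast list, which includes Col3a1, was 1165 to 1187 CPM in control, 1418 to 1462 with doxycycline, 1180 to 1207 with both agents and 1097 to 1128 with dTAG-13, and its part in the results was not tested. Leukocyte markers summed to at most 1.56 CPM, with Ptprc at no more than 1 count. Endothelial markers summed to at most 4.28 CPM, most of it Pecam1.

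The Col4a1 and Col4a2 genes, the most abundant basement membrane pair here, lie head to head, and their shared start region is printed because both chains are read from it in opposite directions. In RefSeq (GRCm38.p6, the build named mm10 in the submitters' processing notes) the Col4a1 transcript starts at 11312826 on the minus strand and the Col4a2 transcript at 11312805 on the plus strand of chromosome 8. The 22 bases in capitals are covered by both of these transcripts and are exonic in both. The RefSeq gene span of Col4a1 reaches to 11312889, so the gene spans overlap over more bases than are printed. The line gives the plus strand of chr8:11312801-11312830.
Col4a1 and Col4a2: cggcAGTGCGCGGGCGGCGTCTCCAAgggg

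Upstream stretches are printed for Col3a1 and Col5a1, which rose with doxycycline below, and Col6a3, which fell, all from RefSeq on GRCm38.p6 and read 5′ to 3′ on the strand of the gene. They lie before the RefSeq gene span and hold no annotated exon. The Col3a1 stretch is chr1:45311288-45311537 on the plus strand, with TATAAA and the reverse complement of GGAATG in capitals. The Col5a1 stretch is chr2:27886175-27886380 on the plus strand, with 2 matches to GGGCGG in capitals, 1 on each strand. The Col6a3 stretch is chr1:90844002-90844221 on the minus strand, with no match to the motifs searched.
Col3a1: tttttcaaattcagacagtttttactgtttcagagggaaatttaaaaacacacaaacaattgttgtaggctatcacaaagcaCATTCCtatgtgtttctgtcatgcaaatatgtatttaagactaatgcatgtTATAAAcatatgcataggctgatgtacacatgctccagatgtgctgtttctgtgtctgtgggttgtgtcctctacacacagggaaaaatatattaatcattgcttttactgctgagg
Col5a1: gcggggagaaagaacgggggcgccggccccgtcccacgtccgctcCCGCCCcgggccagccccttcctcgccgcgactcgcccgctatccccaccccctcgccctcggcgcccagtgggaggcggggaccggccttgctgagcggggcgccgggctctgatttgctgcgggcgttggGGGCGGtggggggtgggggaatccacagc
Col6a3: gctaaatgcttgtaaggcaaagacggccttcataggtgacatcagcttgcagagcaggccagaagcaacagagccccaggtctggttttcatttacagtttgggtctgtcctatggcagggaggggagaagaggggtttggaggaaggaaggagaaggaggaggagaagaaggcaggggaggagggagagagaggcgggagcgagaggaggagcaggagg

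G and C made up 35.2% of the Col3a1 stretch, 77.7% of that of Col5a1 and 56.4% of that of Col6a3. Motifs were searched on both strands in windows from 250 bases before to 50 after the start, which RefSeq gave for 30 of the 42 genes and for 27025 genes in all. GGGCGG, the GC box, was in 19 of the 30 windows and in 38.2% of all windows. CCAAT was in 11 of the 30 and in 41.1% of all. TATAAA was in 2, Col3a1 and Col11a2, and in 15.7% of all. TGANTCA, the AP-1 site, was in 2, Col6a1 and Itga3, and in 9.0% of all, and GGAATG was in 6 and in 16.6% of all. Each motif was searched on its own, so matches of different motifs may overlap. A match is a match of letters only.

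Transcripts of a small set of chains were abundant. Levels between genes were compared as CPM per kilobase of the longest annotated transcript, averaged over the 12 libraries. Itgb1 (260 CPM per kilobase), Col3a1 (161), Col4a1 (135), Col4a2 (93.9), Col6a3 (60.8), Lamb1 (57.4), Lamc1 (41.4) and Itgav (36.2) led the list. The median of the 42 genes was 3.99 CPM per kilobase against 9.98 for all tested genes with a transcript length, 17 genes reached 10 and 19 stayed under 1. Together the 42 genes took 0.6434 to 0.6588% of all counts in control, 0.6853 to 0.6962% with doxycycline, 0.5123 to 0.5203% with both agents and 0.5431 to 0.5464% with dTAG-13, ranges that do not overlap.

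**Figure D1:**
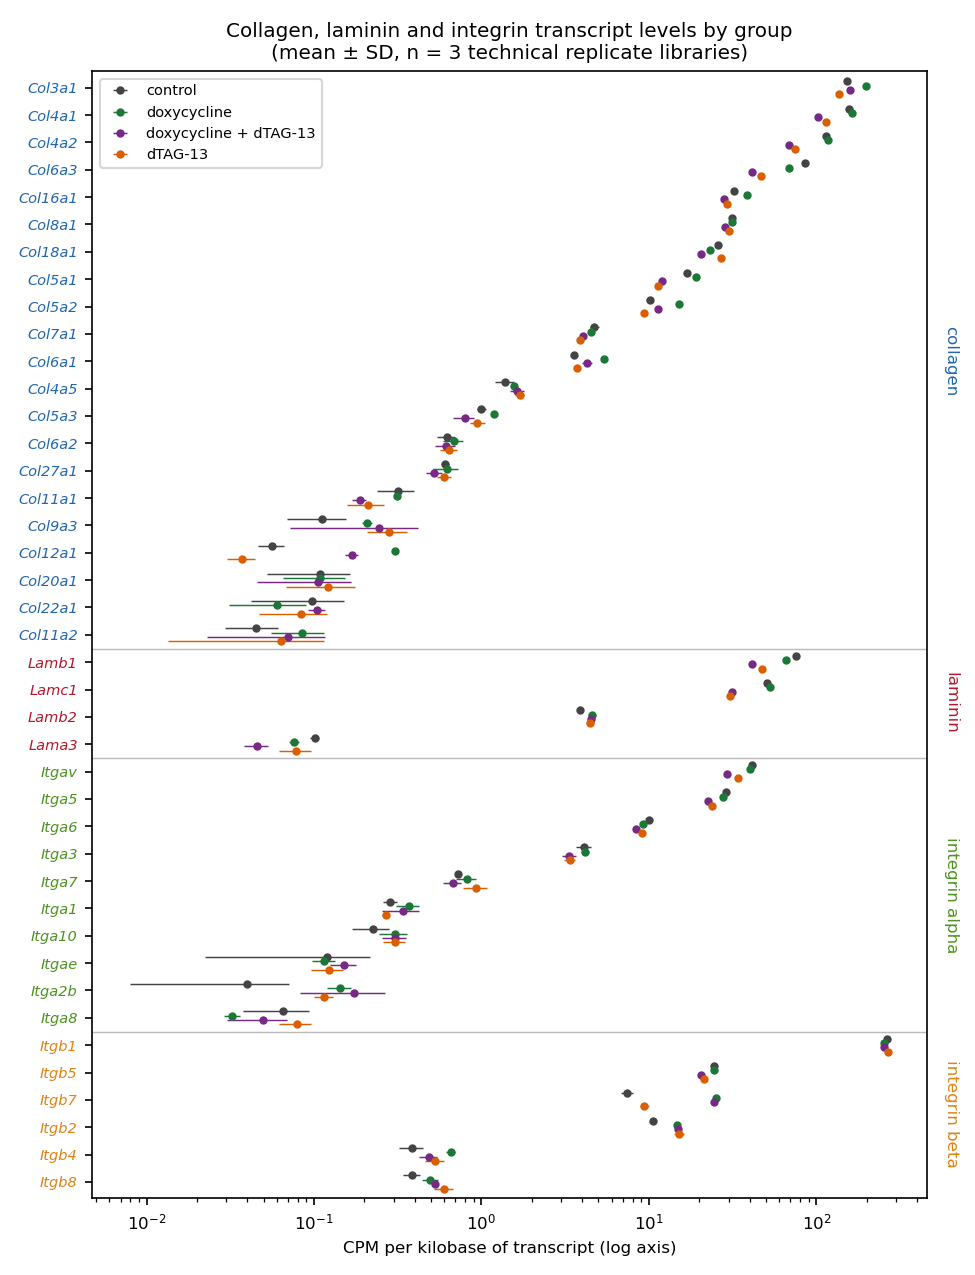
Level of 41 of the 42 genes in the 4 groups, as CPM per kilobase of transcript on a log axis, with points for the mean and bars for the SD of 3 technical replicate libraries. Itgb1 has the highest level at 260 CPM per kilobase over all libraries, and 18 of the 41 genes drawn stay under 1.

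Several chains that usually belong to one molecule were far apart. Type I collagen, the main fibrillar collagen of connective tissue, was nearly absent. Col1a1 reached at most 6 and Col1a2 at most 11 counts in a library, against at least 19718 counts of Col3a1, a homotrimeric fibrillar collagen. Type V collagen was present through all 3 of its genes, with Col5a1 at 14.9, Col5a2 at 11.5 and Col5a3 at 0.981 CPM per kilobase. In type VI collagen, Col6a3 was at 60.8 CPM per kilobase while Col6a1 was at 4.25 and Col6a2 at 0.64, although the 3 chains are known to assemble together. Other collagens present included Col16a1 (32.1 CPM per kilobase), Col8a1 (30.3) and Col18a1 (24.1), the source of endostatin.

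Laminin subunits were lopsided in the same way. Lamb1 and Lamc1, the beta and gamma chains of most laminins, were abundant, and Lamb2 was at 4.37 CPM per kilobase. No abundant alpha chain was seen. Lama3 was the only one of the 5 to meet the rule, at 0.0753 CPM per kilobase, and Lama1, Lama2, Lama4 and Lama5 reached at most 16, 3, 7 and 10 counts in a library. Lamc1 per kilobase was 307 to 786 times Lama3. Lamb3, a beta chain of epithelial laminin, stood at no more than 2 counts.

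Among integrins, Itgb1 had the alpha partners Itga5 (25.7 CPM per kilobase, the fibronectin receptor chain), Itga6 (9.16) and Itga3 (3.74), both laminin receptor chains, and Itgav. The collagen receptor chains were low or near 0, with Itga1 at 0.315 CPM per kilobase, Itga10 at 0.285 and Itga2 and Itga11 at no more than 5 and 2 counts. Of Itga10, 33.53% of the exon bases are also covered by the annotated gene Gm42957, so its counts are uncertain. Itgb5 (22.6 CPM per kilobase) was the main beta partner of Itgav besides Itgb1, while Itgb3 and Itgb6 did not exceed 2 counts. Itgb7 (16.6) and Itgb2 (13.9) were present although their usual alpha partners Itgal, Itgam, Itgax and Itga4 did not exceed 9, 3, 1 and 2 counts, and Itgae lay between 3 and 27.

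Near the limit of the rule, Itga8 reached 10 counts in 5 libraries, Itga2b and Col11a2 in 8, Col20a1 in 9 and Col9a3 in 10. Just outside it, Lama1, Lama5 and Col4a3 did so in 2 libraries and Col1a2 and Col24a1 in 1. Of the 38 genes below the rule, Col25a1 and Col6a5 had no count.

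The comparison of doxycycline with control asked which of these transcripts differ in cells with the transgene induced. The surface-receptor chain Itgb7, the facit collagen Col12a1, the neighbouring fibrillar collagens Col3a1 and Col5a2, and Col6a1 were higher, and Col6a3, Lamb1 and Col18a1 were lower. Of the 42 genes, 19 were called (edgeR adjusted p under 0.05 over all 12910 genes tested), 14 higher and 5 lower, where 33.5% of all tested genes were called, 14.8% higher and 18.7% lower. The median log2 fold change was 0.06 for the 42 genes and -0.01 for all tested genes. CPM ranges of the 2 groups did not overlap for 2562 of all tested genes upward and 3106 downward. By family, 8 collagens rose and 2 fell, 4 integrin beta chains rose and 1 fell, and laminins and integrin alpha chains had 1 in each direction. The 1 alpha chain counted as higher is Itga2b, which met the rule through groups other than control, and without it 13 genes were higher. With libraries scaled by size only, 17 rose and 3 fell (2546 and 1607 over all genes), and after correction for transcript length and GC content 11 rose and 7 fell (1549 and 2990). Itga2b is among the genes that rose in both of these fits.

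Itgb7, whose protein pairs with alpha4 or alphaE, had the smallest adjusted p. It stood at 21.1, 20.7 and 18.0 CPM in control and at 66.8, 67.4 and 68.6 with doxycycline, at 26.9, 23.9 and 25.0 with dTAG-13 and at 64.9, 66.5 and 66.0 with both agents. The 6 libraries with doxycycline lay above the 6 without it. The log2 difference was 1.76 (SE 0.05, edgeR adjusted p 3.57e-28) without dTAG-13, and 1.38 (SE 0.049, adjusted p 3.05e-24) between the 2 groups with dTAG-13. Itgb2 stood at 31.1, 31.1 and 32.6 CPM in control and 44.0, 44.1 and 43.4 with doxycycline, a log2 difference of 0.47 (SE 0.048, adjusted p 1.67e-10). Between the groups with dTAG-13 it was 46.8, 47.2 and 41.5 CPM without doxycycline and 45.5, 44.1 and 43.1 with it, ranges that overlap. The ratio of Itgb2 to Itgb7 per kilobase was therefore 1.44 ± 0.173 (SD, n = 3) in control, 0.586 ± 0.0126 with doxycycline, 1.62 ± 0.146 with dTAG-13 and 0.607 ± 0.0227 with both.

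Col12a1, which codes for a collagen on the surface of type I-like fibrils, was scarce but moved most. It stood at 0.596, 0.773 and 0.568 CPM in control, 3.66, 3.50 and 3.38 with doxycycline, 0.353, 0.418 and 0.517 with dTAG-13, and 1.74, 2.04 and 2.01 with both. No library with doxycycline overlapped one without it. On the log2 scale it differed by 2.43 (SE 0.21, edgeR adjusted p 3.02e-12) without dTAG-13 and 2.17 (SE 0.26, adjusted p 1.26e-08) with it, from 11 to 113 counts in each of the 12 libraries.

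Col3a1 and Col5a2 are neighbours on chromosome 1, 24625 bases apart, and both rose. Col3a1 (Entrez 12825) stood at 860, 866 and 825 CPM in control, 1110, 1082 and 1122 with doxycycline, 757, 766 and 743 with dTAG-13, and 879, 870 and 899 with both. Col5a2 stood at 66.1, 70.0 and 63.9 CPM in control, 99.6, 104 and 99.1 with doxycycline, 60.2, 62.3 and 62.8 with dTAG-13, and 73.7, 75.7 and 77.5 with both. In both genes doxycycline was above its matched group in every library, and the 2 dTAG-13 groups lay closer together. The log2 fold changes without dTAG-13 were 0.38 (SE 0.021, edgeR adjusted p 2.66e-18) for Col3a1 and 0.59 (SE 0.036, adjusted p 5.31e-17) for Col5a2. With dTAG-13 they were 0.22 (SE 0.021, adjusted p 2.83e-11) and 0.29 (SE 0.038, adjusted p 7.90e-08). Col5a1, the partner chain of Col5a2, rose by 0.18 (SE 0.027, adjusted p 7.89e-07) without dTAG-13, and in the dTAG-13 groups it had 94.9 to 96.5 CPM without and 98.7 to 103 with doxycycline, a difference that was not called (0.06, adjusted p 0.119) except after the length and GC correction (0.10, adjusted p 0.00982).

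The type VI chains moved in opposite directions. Col6a1 stood at 15.2, 14.4 and 14.4 CPM in control and 23.3, 21.6 and 21.9 with doxycycline, a log2 difference of 0.60 (SE 0.064, edgeR adjusted p 7.56e-10). Col6a3 stood at 876, 870 and 862 CPM in control and 694, 694 and 694 with doxycycline, a log2 difference of -0.32 (SE 0.02, adjusted p 5.89e-17). Neither pair of groups overlapped. Col6a2 differed by 0.15 (SE 0.15, adjusted p 0.49) and was not called. The ratio of Col6a3 to Col6a1 per kilobase was 24.1 ± 0.611 (SD, n = 3) in control, 12.7 ± 0.501 with doxycycline, 12.7 ± 0.164 with dTAG-13 and 9.72 ± 0.756 with both.

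The basement membrane chains moved little with doxycycline. Col4a1 had 1037 ± 13.4 CPM in control and 1087 ± 11.4 with doxycycline (SD, n = 3), a log2 difference of 0.07 (SE 0.019, edgeR adjusted p 0.00334), a call lost after the length and GC correction (0.04, adjusted p 0.116). Col4a2 differed by 0.05 (adjusted p 0.0396), a call lost with RLE size factors, DESeq2, the replicate block and the length and GC correction (0.02) and without any 1 of control replicates 1, 2 and 3, doxycycline replicates 2 and 3 and dTAG-13 replicate 3 (values of 0.05 to 0.07). Lamb1 stood at 439, 437 and 428 CPM in control and 385, 378 and 382 with doxycycline, and fell by 0.19 on the log2 scale (SE 0.023, adjusted p 9.30e-09). Its partner Lamc1 had 389 ± 6.3 and 403 ± 4.52 CPM, ranges that did not overlap, and was not called (0.05, adjusted p 0.0866). It was called higher with library size only, with only the groups compared, and without dTAG-13 replicate 1 or 2. Lamb2, at 22.8, 21.9 and 21.1 CPM in control and 25.0, 24.9 and 27.4 with doxycycline, rose by 0.23 (SE 0.058, adjusted p 0.00147), and Col18a1 was at 146, 144 and 144 CPM in control and 129, 129 and 132 with doxycycline, a log2 difference of -0.15 (SE 0.027, adjusted p 1.19e-05).

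Itgb4, the hemidesmosome chain that pairs with alpha6, stood at 2.04, 2.29 and 2.80 CPM in control and 3.76, 4.27 and 4.18 with doxycycline, a log2 difference of 0.78 (SE 0.15, edgeR adjusted p 8.14e-05). Its partner Itga6 stood at 41.5, 43.4 and 44.9 CPM in control and 40.4, 38.6 and 40.3 with doxycycline, a log2 difference of -0.12 (SE 0.045, adjusted p 0.0342). That call was lost with library size only, DESeq2, no filter, only the groups compared, and without any 1 of control replicates 2 and 3, doxycycline replicates 1 and 2 and dTAG-13 replicates 1 and 2 (values of -0.15 to -0.09). Itgb1, at 999, 1016 and 1010 CPM and 984, 950 and 967, differed by -0.06 (SE 0.019, adjusted p 0.0103), not called with library size only, no filter or only the groups compared, nor without control replicate 2 or doxycycline replicate 2 (-0.07 to -0.04). Itgb8 rose by 0.36 (adjusted p 0.0392), not called with DESeq2, after the length and GC correction (0.27, adjusted p 0.113) or without control replicate 3, doxycycline replicate 1 or doxycycline replicate 3 (0.27 to 0.44). Itga5, Itgav, Itga3 and Itgb5 were not called, with log2 fold changes of -0.05, -0.03, 0.03 and -0.00, though Itgav was after the correction (-0.09). Itga2b, the platelet integrin chain, had 0.0314, 0.129 and 0.248 CPM in control, which is under 10 counts in each library, and 0.518, 0.400 and 0.552 with doxycycline. Since it met the rule only through the other 3 groups, its log2 fold change of 1.86 (SE 0.52) is given as a description, and lay between 1.37 and 2.56 with single libraries left out.

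**Figure D2:**
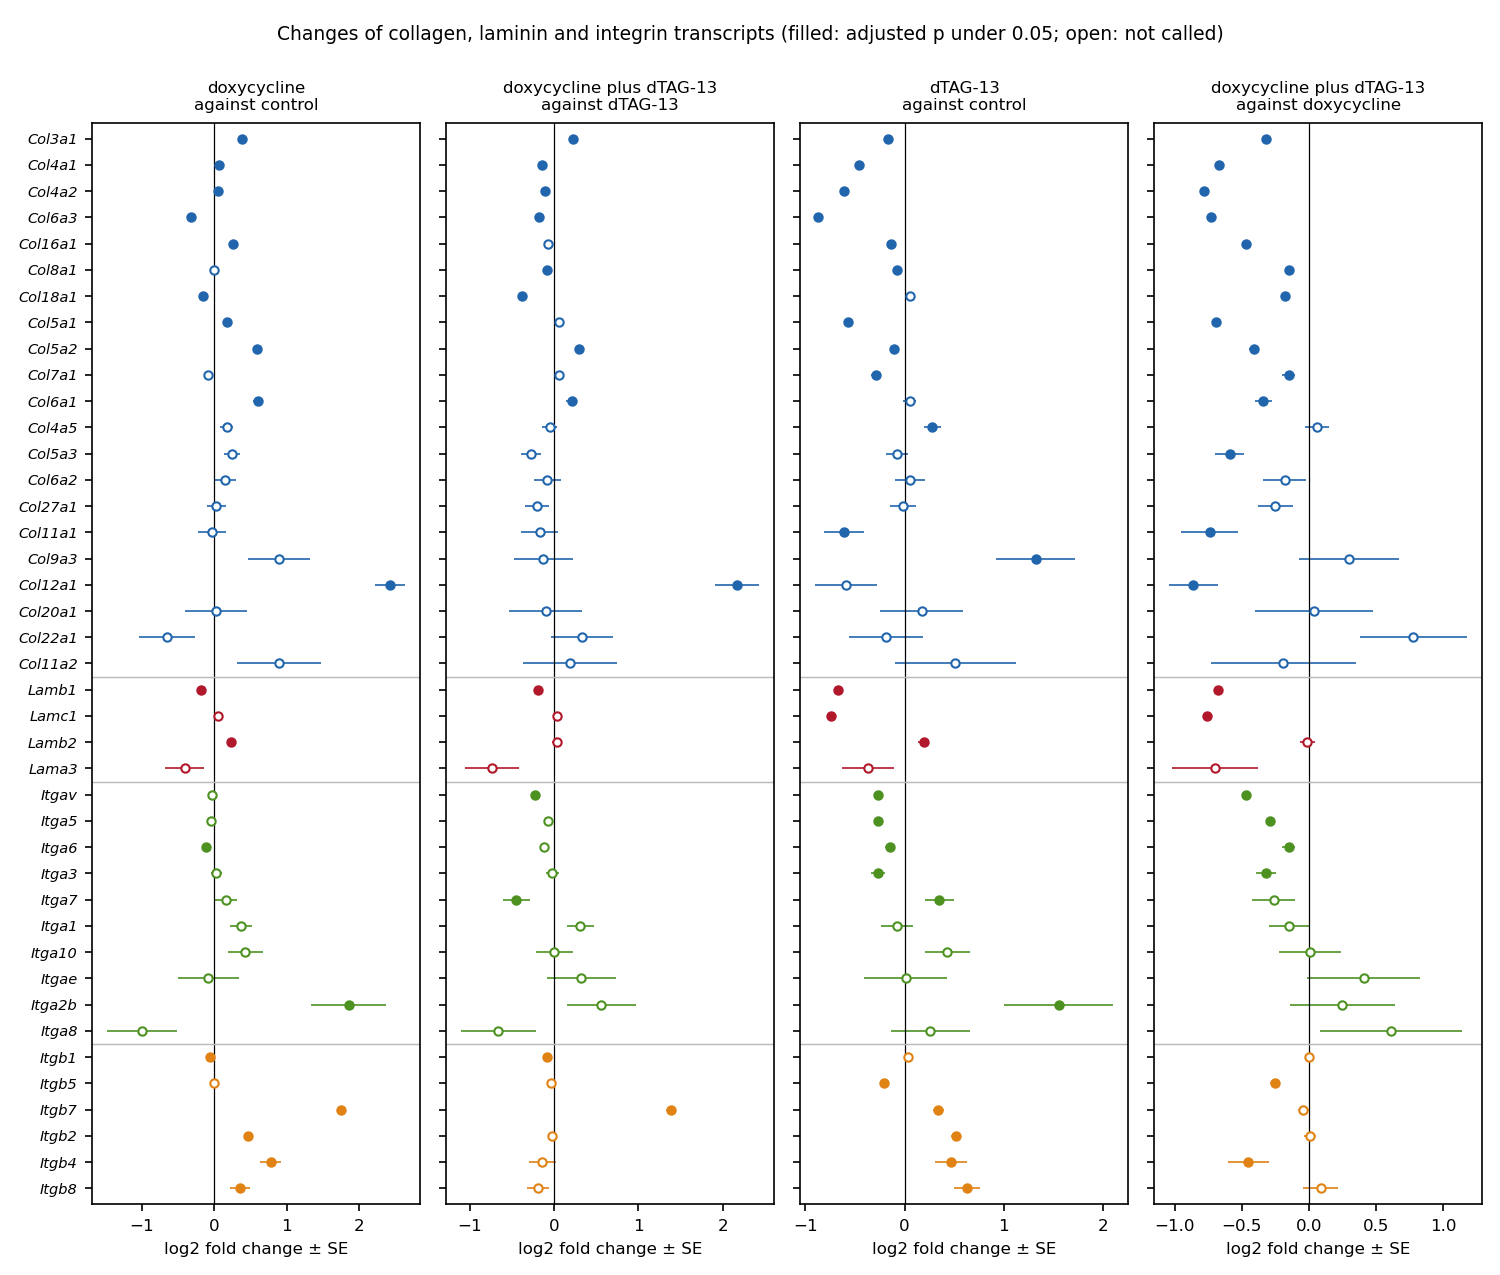
Log2 fold change with its SE for 41 of the 42 genes in the 4 pairwise comparisons, with filled points for genes called at an adjusted p under 0.05 and open points for the rest. The x axes differ between panels. Itgb7 and Col12a1 lie far to the right in both doxycycline panels, and in the panel of doxycycline plus dTAG-13 against doxycycline 22 filled points lie below 0 and 0 above it.

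The same question was put to the 2 groups with dTAG-13. Of the 42 genes 14 were called by edgeR, 5 higher and 9 lower, where 20.4% of all tested genes were called, 10.7% higher and 9.64% lower. With library size only, 4 were higher and 12 lower (926 and 2132 over all genes), and after the length and GC correction 7 and 8 (1197 and 1129). CPM ranges did not overlap for 2266 of all tested genes upward and 2156 downward. This comparison shares no library with doxycycline against control. Beside Col12a1, Itgb7, Col3a1 and Col5a2, Col6a1 rose by 0.21 (SE 0.067, adjusted p 0.0212), a call lost with library size only, without replicate 3 of both agents and without dTAG-13 replicate 1 (0.15 to 0.24). The 9 lower genes were Itga7, Col18a1, Itgav, Lamb1, Col6a3, Col4a1, Col4a2, Itgb1 and Col8a1, from -0.45 to -0.08.

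Col18a1 stood at 151, 148 and 150 CPM with dTAG-13 alone and 117, 113 and 115 with both, a log2 difference of -0.38 (SE 0.027, edgeR adjusted p 1.49e-14). Lamb1 stood at 266, 275 and 276 CPM and 236, 243 and 238, and Col6a3 at 474, 468 and 483 and 422, 419 and 413. The groups overlapped in none of these 3 genes. Lamb1 and Col6a3 fell by 0.19 (SE 0.023, adjusted p 3.44e-08) and by 0.18 (SE 0.02, adjusted p 2.05e-09) on the log2 scale. Itgav, at 240, 245 and 239 CPM with dTAG-13 alone and 206, 209 and 203 with both, fell by 0.23 (SE 0.024, adjusted p 1.51e-09). Col4a1 and Col4a2 fell by 0.14 (SE 0.019, adjusted p 1.55e-07) and 0.11 (SE 0.021, adjusted p 9.94e-05). Itgb1, at 1029, 1036 and 1017 CPM with dTAG-13 alone and 976, 958 and 972 with both, fell by 0.09 (SE 0.019, adjusted p 7.57e-04). Itga7, a laminin receptor chain of muscle, stood at 4.34, 3.12 and 3.75 CPM and 2.32, 2.83 and 2.97, a difference of -0.45 (SE 0.16, adjusted p 0.0331). Its call was lost with DESeq2 and without replicate 1 or 2 of both agents or dTAG-13 replicate 1 or 3, with values from -0.56 to -0.33 over the libraries left out. The Col8a1 call (adjusted p 0.0387) was lost with RLE size factors, DESeq2, no filter, the replicate block and the length and GC correction, and without any replicate of both agents, dTAG-13 replicate 1 or 3, control replicate 2 or doxycycline replicate 2, at values from -0.09 to -0.06.

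dTAG-13 was compared with control to see what 3 h of the degrader changed in cells without the induced transgene. The filament collagen Col6a3, the type IV chains Col4a1 and Col4a2, the fibrillar chain Col5a1 and the laminin chains Lamc1 and Lamb1 were lower, and Col4a5 and 4 of 6 integrin beta chains were higher. Of the 42 genes 27 were called by edgeR, 10 higher and 17 lower, where 62.1% of all tested genes were called, 30.0% higher and 32.1% lower. The share called is close to that of all genes. The median log2 fold change was -0.08 against 0.02 for all tested genes. Of all 12910 tested genes, 4158 upward and 4295 downward had no overlap in CPM between these 2 groups. By family, 2 collagens rose and 10 fell, 2 laminins rose and 2 fell, 2 integrin alpha chains rose and 4 fell, and 4 integrin beta chains rose and 1 fell. Itga2b is again among the higher alpha chains, and without it 9 genes were higher. With library size only 13 rose, Itga2b among them, and 13 fell (5256 and 3115 over all genes).

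In cells with doxycycline nearly all called differences after dTAG-13 were falls. Of the 42 genes, 23 were called by edgeR, 1 higher and 22 lower, where 64.1% of all tested genes were called, 30.7% higher and 33.4% lower. The median log2 fold change was -0.22 against 0.00. Of all 12910 tested genes, 4150 upward and 4522 downward had no overlap in CPM between these 2 groups. Of the collagens 14 fell and 0 rose.

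Both comparisons need transcript length and GC content beside them. The median length of the 42 genes was 5706 bases against 3400 for all tested genes, and 29 of the 42 reached 5000 bases. Of all tested genes, the 2704 with transcripts of 5000 bases or more had a median log2 fold change of -0.22 in the comparison without doxycycline and -0.31 in that with it. Medians of 0.13 and 0.17 were found for the 4863 genes under 3000 bases. In the comparison of doxycycline with control the long and short genes had medians of 0.02 and -0.03. A fit that removed length and GC content as an offset in each library was therefore run for all 11745 tested genes with a transcript length. It removes both together, and their separate parts were not tested. For dTAG-13 against control it moved Col18a1 (5595 bases, 60.8% GC) from 0.05 to 0.42. Col6a3 (10106 bases, 54.5% GC) moved from -0.87 to -0.42 and Itgav (7054 bases, 43.5% GC) from -0.27 to -0.13.

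After that correction, fewer of the members' calls were falls. For dTAG-13 against control 19 were higher, Itga2b among them, and 8 lower, where 56.9% of all genes were called, 23.7% higher and 33.2% lower. The members' median moved from -0.08 to 0.20. With doxycycline present 6 were higher and 9 lower, where 55.0% were called, 25.1% higher and 30.0% lower, and the median moved from -0.22 to 0.01. Of the 27 and 23 original calls, 18 (with Itga2b) and 10 kept their call and direction, and 4 and 2 were called in the other direction. The 4 called lower before and higher after correction were Col3a1, Col5a2, Col7a1 and Col16a1. With doxycycline present the 2 were Col7a1 and Col18a1. The sign itself changed for 6 of the 27 and 5 of the 23. In dTAG-13 against control the calls of Col8a1, Col11a1, Itga3, Itga5 and Itga6 ended, and Col5a3 (0.33), Col6a1 (0.24), Col18a1 (0.42), Col27a1 (0.44) and Itga10 (0.66) were called higher after correction alone. With doxycycline present 11 calls ended, those of Col3a1, Col5a2, Col5a3, Col6a1, Col8a1, Col11a1, Col16a1, Itga3, Itga5, Itga6 and Itgb4. There Col4a5 (0.41), Col22a1 (1.24, from 7 or more counts in each library) and Lamb2 (0.40) were called higher after correction alone. Values marked as corrected below come from this fit.

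**Figure D3:**
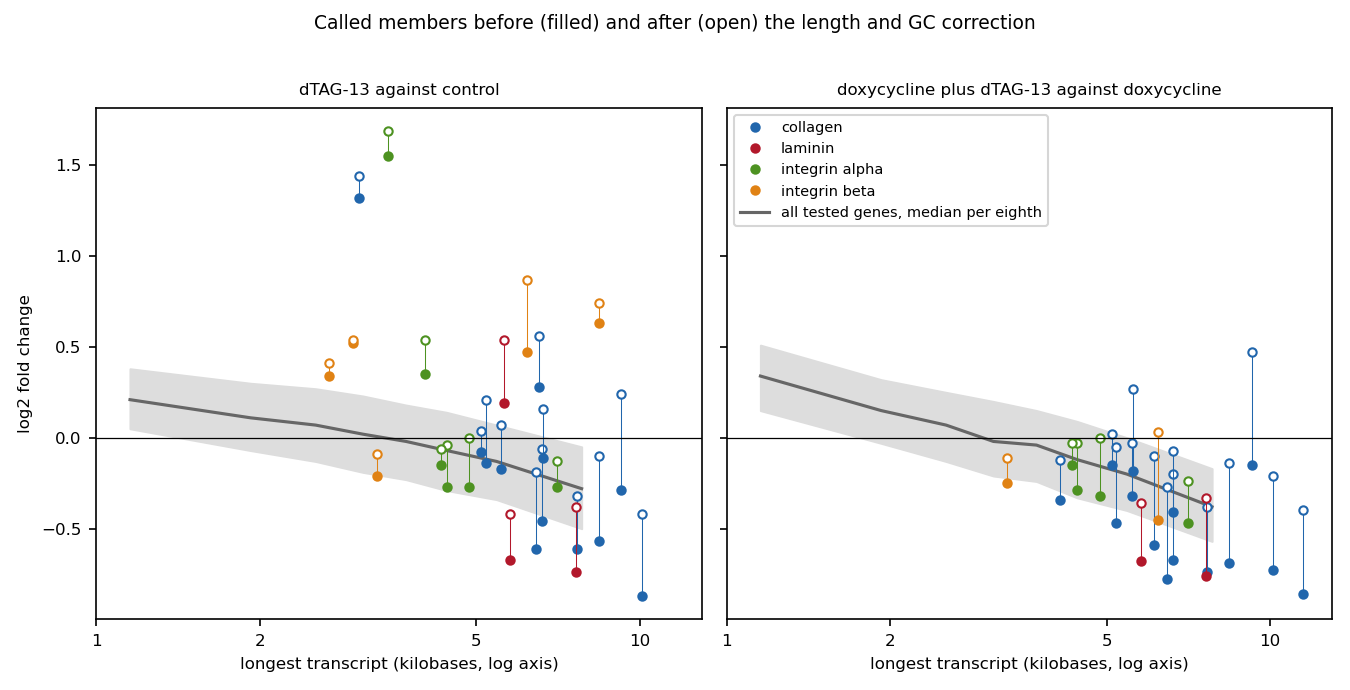
Log2 fold change against the longest transcript on a log axis, for 26 and 22 of the genes called in the 2 dTAG-13 comparisons, before (filled) and after (open) the correction for length and GC content. The grey line and band are the median and interquartile range of all tested genes in 8 length classes of equal size, falling from 0.21 to -0.28 on the left and from 0.34 to -0.38 on the right.

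Lamc1 and Lamb1, the 2 abundant laminin chains, fell together and stayed lower under every alternative run. Lamc1 stood at 396, 385 and 386 CPM in control, 236, 233 and 229 with dTAG-13, 407, 404 and 398 with doxycycline, and 235, 245 and 234 with both. Lamb1 stood at 266, 275 and 276 CPM with dTAG-13 against 439, 437 and 428 in control. In both genes the 6 libraries with dTAG-13 lay below the 6 without. For dTAG-13 against control the log2 fold changes were -0.74 (SE 0.024, edgeR adjusted p 4.47e-27) for Lamc1 and -0.67 (SE 0.023, adjusted p 3.09e-26) for Lamb1, and after the length and GC correction -0.38 and -0.42. In the presence of doxycycline they were -0.76 (SE 0.024, adjusted p 4.06e-27) and -0.68 (SE 0.023, adjusted p 8.34e-26), and after correction -0.33 and -0.36. Lamb2, at 24.4, 24.1 and 26.6 CPM with dTAG-13, rose by 0.19 (SE 0.058, adjusted p 0.00426) without doxycycline, not called without dTAG-13 replicate 3 (0.14 to 0.21), and differed by -0.01 with doxycycline (corrected 0.54 and 0.40). Lama3 was not called in either comparison (-0.37 and -0.70, corrected 0.05 and -0.22). With doxycycline present its adjusted p was 0.0515, and it was called lower with the filter of 1 CPM in 3 libraries and without dTAG-13 replicate 1. The ratio of Lamb1 to Lamb2 per kilobase was 19.3 ± 0.525 in control, 14.4 ± 0.787 with doxycycline, 10.6 ± 0.497 with dTAG-13 and 9.1 ± 0.174 with both.

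Col4a1 and Col4a2, the head-to-head pair printed above, both fell. Col4a1 stood at 1045, 1044 and 1021 CPM in control, 759, 748 and 760 with dTAG-13, 1084, 1078 and 1100 with doxycycline, and 686, 686 and 681 with both. Col4a2 stood at 743, 730 and 729 CPM in control, 490, 471 and 481 with dTAG-13, 752, 768 and 767 with doxycycline, and 448, 452 and 435 with both. No library with dTAG-13 reached one without it. For dTAG-13 against control the log2 fold changes were -0.46 (SE 0.019, edgeR adjusted p 1.86e-23) for Col4a1 and -0.61 (SE 0.021, adjusted p 4.75e-26) for Col4a2, and after correction -0.06 and -0.19. With doxycycline they were -0.67 (SE 0.019, adjusted p 1.02e-28) and -0.78 (SE 0.021, adjusted p 3.32e-29), and after correction -0.20 and -0.27. The ratio of Col4a1 to Col4a2 per kilobase stayed between 1.36 and 1.55 over the 12 libraries, at 1.36 to 1.40 in the 6 without dTAG-13 and 1.48 to 1.55 in the 6 with it. Col4a5, the X-linked type IV chain, went the other way without doxycycline. It stood at 8.60, 10.4 and 8.20 CPM in control and 10.6, 10.7 and 11.8 with dTAG-13, a rise of 0.28 (SE 0.09, adjusted p 0.00689, corrected 0.56), a call lost without control replicate 3 or dTAG-13 replicate 3 (0.21 to 0.38).

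Col6a3 showed the largest fall of any of the 42 genes after dTAG-13 without doxycycline. It stood at 876, 870 and 862 CPM in control and 474, 468 and 483 with dTAG-13, a log2 difference of -0.87 (SE 0.02, edgeR adjusted p 7.33e-32, corrected -0.42). With doxycycline it went from 694 ± 0.152 to 418 ± 4.73 CPM (SD, n = 3), a log2 difference of -0.73 (SE 0.02, adjusted p 4.70e-29, corrected -0.21). Its partner Col6a1 differed by 0.05 without doxycycline, which was not called (corrected 0.24, adjusted p 0.00269, called), and by -0.34 (SE 0.064, adjusted p 1.30e-05, corrected -0.12, not called) with it.

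**Figure D4:**
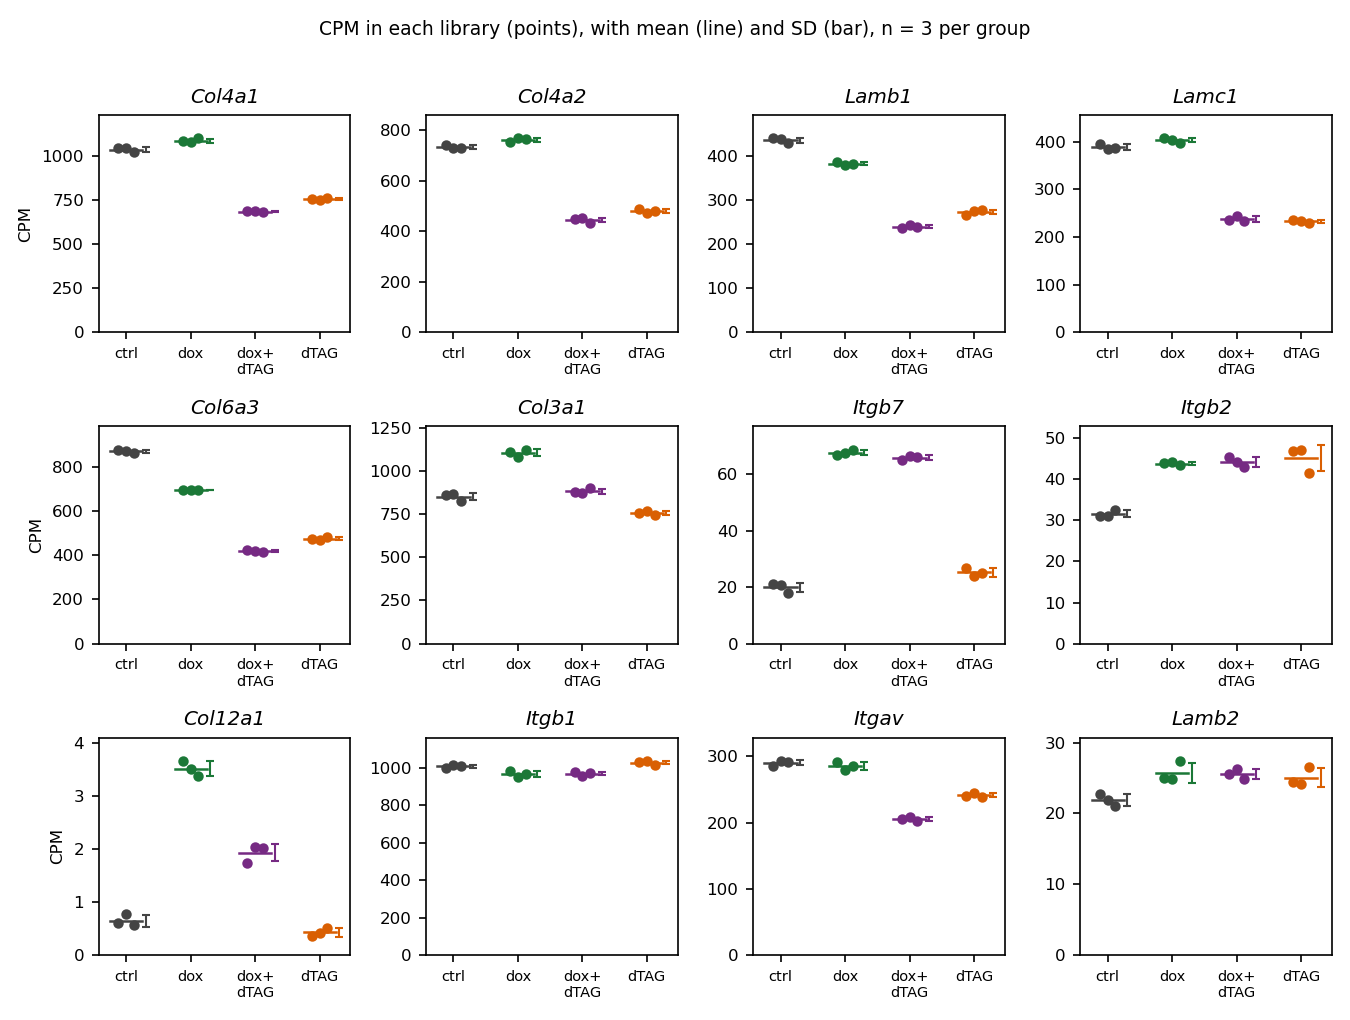
CPM of 12 of the genes in each library, with points for libraries, a line for the mean and a bar for the SD of 3 libraries per group, each y axis starting at 0. Col4a1, Col4a2, Lamb1, Lamc1 and Col6a3 are lower in both groups with dTAG-13, while Itgb7 stands at 64.9 CPM or more in both groups with doxycycline and at 26.9 or less in the others.

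Of the fibrillar chains, Col5a1 stood at 144, 143 and 139 CPM in control and 96.5, 94.9 and 96.5 with dTAG-13, a log2 difference of -0.57 (SE 0.028, edgeR adjusted p 1.04e-20, corrected -0.10). With doxycycline it fell from 161 ± 1.11 to 100 ± 2.44 CPM (SD, n = 3), by 0.69 (SE 0.028, adjusted p 3.34e-23, corrected -0.14). Its partner Col5a2 fell by 0.11 (SE 0.038, adjusted p 0.00937) without and 0.41 (SE 0.036, adjusted p 3.73e-13, corrected -0.07, not called) with doxycycline. The first of these was lost without control replicate 2 (-0.15 to -0.08) and with library size only, and turned to 0.16 after correction, called higher. Col3a1 fell by 0.17 (SE 0.021, adjusted p 2.69e-09) and by 0.32 (SE 0.021, adjusted p 3.73e-17). After correction the values were 0.07 (adjusted p 0.00375, called higher) and -0.03 (not called). The ratio of Col5a1 to Col5a2 per kilobase was 1.68 ± 0.0591 in control, 1.26 ± 0.0359 with doxycycline, 1.23 ± 0.0345 with dTAG-13 and 1.05 ± 0.0513 with both. Col5a3, the third type V gene, fell by 0.59 (SE 0.11, adjusted p 1.93e-05, corrected -0.10, not called) with doxycycline present and was not called without it (-0.08), where the corrected value of 0.33 was called (adjusted p 0.00867). Col11a1, a chain of cartilage fibrils, fell by 0.61 (SE 0.20, adjusted p 0.00823) and 0.74 (SE 0.21, adjusted p 0.00224), and neither was called after correction. The first was also lost without control replicate 1 or dTAG-13 replicate 2 (-0.81 to -0.38). Col12a1 fell by 0.86 (SE 0.18, adjusted p 6.12e-05, corrected -0.40) in the presence of doxycycline. Col16a1, Col7a1, Col8a1 and, with doxycycline, Col18a1 fell by 0.08 to 0.47, and after correction lay between -0.05 and 0.47. Without doxycycline the Col16a1 and Col8a1 calls were also lost with library size only.

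Among integrin alpha chains, Itgav, Itga5, Itga3 and Itga6 all fell in both dTAG-13 comparisons. Itgav stood at 286, 293 and 292 CPM in control, 240, 245 and 239 with dTAG-13, 291, 279 and 285 with doxycycline and 206, 209 and 203 with both. The groups with dTAG-13 did not overlap those without, and the lowest values were those with both agents. Its log2 fold changes were -0.27 (SE 0.024, edgeR adjusted p 7.22e-13, corrected -0.13) and, with doxycycline, -0.47 (SE 0.024, adjusted p 4.92e-20, corrected -0.24). Itga5 stood at 124, 128 and 128 CPM in control, 105, 105 and 104 with dTAG-13, 126, 123 and 119 with doxycycline and 98.8, 104 and 97.2 with both. Itga3 stood at 19.2, 18.3 and 22.1 CPM in control, 15.1, 16.6 and 17.5 with dTAG-13, 21.3, 20.0 and 19.3 with doxycycline and 16.4, 17.7 and 14.6 with both. Both were lower in each group with dTAG-13 than in its matched group, with no overlap. Itga5 fell by 0.27 and 0.29, Itga3 by 0.27 and 0.32 and Itga6 by 0.15 and 0.15 on the log2 scale, and after correction these 6 values lay between -0.06 and 0.00, none of them called. The Itga6 call without doxycycline was also lost with library size only (-0.06). Itga7 stood at 2.89, 2.99 and 2.91 CPM in control and 4.34, 3.12 and 3.75 with dTAG-13, a rise of 0.35 (SE 0.15, adjusted p 0.0404, corrected 0.54), a call lost with DESeq2 and without any 1 of the 3 control replicates, dTAG-13 replicate 1 or dTAG-13 replicate 3 (0.22 to 0.46).

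Integrin beta chains differed among themselves. Itgb1 had 1008 ± 8.22 CPM in control and 1027 ± 9.68 with dTAG-13, 967 ± 16.8 with doxycycline and 969 ± 9.81 with both (SD, n = 3). It was called in neither dTAG-13 comparison, except as higher without doxycycline when libraries were scaled by size only. The ratio of Itgb1 to Itgav per kilobase was accordingly 6.43 ± 0.0352 in control, 6.28 ± 0.0156 with doxycycline, 7.89 ± 0.052 with dTAG-13 and 8.69 ± 0.202 with both. Itgb5 stood at 82.6, 81.3 and 77.0 CPM in control, 67.9, 71.3 and 69.3 with dTAG-13, 79.8, 82.8 and 77.8 with doxycycline and 68.6, 64.2 and 69.3 with both. It fell by 0.21 (SE 0.037, edgeR adjusted p 5.29e-06, corrected -0.09) and 0.25 (SE 0.038, adjusted p 2.87e-07, corrected -0.11). Itgb8, a partner of alpha-v, stood at 3.48, 3.41 and 2.80 CPM in control and 4.69, 5.79 and 4.61 with dTAG-13, and Itgb4 at 3.08, 3.76 and 2.96 with dTAG-13. Itgb2, Itgb7, Itgb8 and Itgb4 rose without doxycycline by 0.52 (SE 0.048, adjusted p 1.88e-12), 0.34 (SE 0.056, adjusted p 1.36e-06), 0.63 (SE 0.13, adjusted p 6.48e-05) and 0.47 (SE 0.16, adjusted p 0.00946). The Itgb4 call was lost without control replicate 1 or dTAG-13 replicate 2 (0.35 to 0.59). These 4 remained higher after correction, at 0.54, 0.41, 0.74 and 0.87. With doxycycline present, Itgb2, Itgb7 and Itgb8 were not called (0.01, -0.04 and 0.09), and Itgb4, at 3.43, 2.79 and 2.78 CPM with both agents, fell by 0.45 (SE 0.15, adjusted p 0.00905, corrected 0.03). Exon bases of Itgb4 are shared with B230344G16Rik over 7.66%, and those of Itgav with Gm13684 over 5.9%, both on the opposite strand. The strand setting of the counting is not given in the sources used here, so reads of such pairs cannot be told apart.

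The scarce genes Col9a3 and Itga2b had high fitted values after dTAG-13 without doxycycline. Col9a3 stood at 0.439, 0.193 and 0.390 CPM in control and 0.643, 0.837 and 1.1 with dTAG-13, a log2 difference of 1.32 (SE 0.40, edgeR adjusted p 0.00448, corrected 1.44) from 6 to 42 counts in each of the 12 libraries. Its exons share 6.07% of their bases with Tcfl5 on the opposite strand. Itga2b stood at 0.353, 0.450 and 0.379 CPM with dTAG-13, 1.55 (SE 0.55) above control on the log2 scale, again as a description (1.06 to 2.24 with single libraries left out). Neither was called with doxycycline present.

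Whether the dTAG-13 difference changed with doxycycline was tested as an interaction, the dTAG-13 difference with doxycycline minus that without it. Of the 42 genes 16 were called by edgeR, 1 higher and 15 lower, where 22.9% of all tested genes were called, 13.2% higher and 9.64% lower. The median over the 42 was -0.20 against 0.01. After the length and GC correction 13 were lower and 2 higher (892 and 1968 over all genes), with a median of -0.12 against 0.03. With library size only 18 were lower and 0 higher (2424 and 818 over all genes). The 4 groups enter this value with opposite signs, so it restates the 2 doxycycline comparisons as much as the 2 of dTAG-13. The beta chains Itgb4 (-0.92, SE 0.22, adjusted p 0.00172), Itgb8 (-0.55, SE 0.19, adjusted p 0.0303, not called after correction), Itgb2 (-0.51, SE 0.067, adjusted p 2.43e-07) and Itgb7 (-0.38, SE 0.071, adjusted p 9.92e-05) had more negative values with doxycycline. For Itgb2, control was the 1 group that stood apart, at 31.6 ± 0.874 CPM against 43.8 ± 0.363, 45.1 ± 3.16 and 44.2 ± 1.22 (SD, n = 3). Among collagens the interaction was -0.52 for Col5a3 (SE 0.16, adjusted p 0.0156), which stood at 6.12, 6.47 and 5.75 CPM in control, 7.06, 7.43 and 7.28 with doxycycline, 6.30, 5.95 and 5.13 with dTAG-13 and 5.08, 5.42 and 4.05 with both. It was -0.39 for Col6a1 (SE 0.093, adjusted p 0.00179), -0.34 for Col16a1 (SE 0.041, adjusted p 4.70e-08) and -0.30 for Col5a2 (SE 0.052, adjusted p 3.16e-05). Col6a3 was the 1 called gene with a positive value, 0.14 (SE 0.028, adjusted p 2.44e-04), not called with library size only. Of the integrin alpha chains Itga7 (-0.61, SE 0.22, adjusted p 0.0375) and Itgav (-0.20, SE 0.034, adjusted p 2.55e-05) were called. No laminin chain was called, though Lamb2 was with library size only, and Lamc1 and Lamb1 had -0.02 and -0.00.

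Genes that make, anchor or remodel this matrix were followed in 5 lists. Over all tested genes, 14.8% were called higher and 18.7% lower with doxycycline, and 30.0% and 32.1% with dTAG-13. The shares were 30.7% and 33.4% for dTAG-13 with doxycycline present, 10.7% and 9.64% between the dTAG-13 groups, and 13.2% and 9.64% for the interaction. A count near these shares says nothing particular about a list. With dTAG-13, 16 of 23 proteases and inhibitors and 8 of 13 non-integrin receptors were called, beside 62.1% of all tested genes. In the integrin adhesion complex, which links integrin tails to actin, 34 of 37 listed genes were tested. After dTAG-13 4 rose and 24 fell without doxycycline, and 3 rose and 26 fell with it, with medians of -0.33 and -0.34 against 0.02 and 0.00 for all tested genes. After the length and GC correction 2 rose and 23 fell, and 5 rose and 21 fell. Tln1, the talin that activates integrins, went from 347 to 175 CPM without and from 321 to 178 with doxycycline, log2 fold changes of -0.99 (SE 0.026, edgeR adjusted p 4.23e-30, corrected -0.54) and -0.85 (SE 0.026, adjusted p 1.62e-27, corrected -0.32). With doxycycline against control 6 rose and 17 fell. The largest were rises of Tns1 (1.55, from 0.251 to 0.746 CPM) and of Tns2 (0.51, from 43.0 to 61.3 CPM), which code for tensins. Between the dTAG-13 groups 6 rose and 8 fell, with Src at 0.53 and Fermt2 at -0.24, and with library size only 3 rose and 13 fell, and after correction 6 and 5. For the interaction 8 were higher and 3 lower, with Flna at 0.22 and Tns2 at -0.31, with library size only 2 were higher and 4 lower, with RLE size factors 10 and 2, with DESeq2 8 and 1, and after correction 12 and 1.

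Other basement membrane and matrix proteins were measured through 20 of 28 listed genes. For dTAG-13 against control 6 rose and 10 fell, and after correction 8 rose and 6 fell. Hspg2, the perlecan core protein, went from 403 to 167 CPM (-1.27, SE 0.035, edgeR adjusted p 4.85e-17, corrected -0.67) and Fbn1, fibrillin-1, from 358 to 174 CPM (-1.04, SE 0.025, adjusted p 3.07e-31, corrected -0.59). With doxycycline present 3 rose and 11 fell, with Fn1, fibronectin, from 718 to 395 CPM (-0.86, corrected -0.40) and Hspg2 from 391 to 223 CPM (-0.81, corrected -0.15). Doxycycline against control gave 9 higher and 5 lower, with Sparc, a collagen-binding protein of basement membranes, from 184 to 280 CPM (0.60, SE 0.025, adjusted p 2.20e-22). The scarce Vwa1 went from 0.767 to 1.22 CPM (0.67, SE 0.26, adjusted p 0.0445). Between the dTAG-13 groups 7 rose and 3 fell, led by Thbs1 at 0.50 and Npnt at -0.42, and with library size only 7 rose and 5 fell. For the interaction 4 were higher and 7 lower, with Nid1 at -0.51 and Hspg2 at 0.46.

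Collagen processing enzymes and chaperones, 23 of 28 tested, did not share one direction. With doxycycline against control 9 rose and 3 fell, and with library size only 10 rose and 0 fell. Lox, a crosslinking oxidase, rose by 0.61 (from 1.31 to 2 CPM) and Pcolce, an enhancer of procollagen cleavage, by 0.34. For dTAG-13 against control 9 rose and 10 fell, with library size only 11 and 7, and after correction 12 and 7. P4ha2, a prolyl hydroxylase subunit, rose from 56.2 to 86.1 CPM (0.61, SE 0.04, edgeR adjusted p 4.42e-17), and Fkbp10 fell by 0.37. With doxycycline present 3 rose and 14 fell (corrected 7 and 11), with Ppib at 0.41 and Mia3, which loads procollagen for export, at -0.46. P4ha2 stood at 58.7 CPM with both agents, and its interaction was -0.76 (SE 0.057, adjusted p 1.48e-13). Plod2, a lysyl hydroxylase, had -0.39 between the dTAG-13 groups and -0.53 for the interaction, where 1 gene was higher and 8 lower in each (0 and 11 for the interaction with library size only).

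Matrix proteases and inhibitors, 23 of 35 tested, had 9 higher and 5 lower with doxycycline, among them Adam19, a metalloprotease of the cell surface, at -0.72. For dTAG-13 against control 6 rose and 10 fell, with library size only 9 and 8 and after correction 7 and 7, with Timp3 at 0.37 and Adam19 at -0.45 (corrected -0.14, not called). With doxycycline present 2 rose and 13 fell, with library size only 4 and 13 and after correction 3 and 9. Mmp2, gelatinase A, fell by 0.54 (corrected -0.45) and Adam19 by 0.51 (corrected -0.14, not called). Between the dTAG-13 groups 2 rose and 5 fell, led by Adam19 at -0.78 and Adam8 at -0.34, and for the interaction 2 were higher and 9 lower, with Adamts1 at 0.37, and after correction 2 and 5.

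Of the non-integrin receptors of collagen and laminin 13 of 16 were tested. Dag1, dystroglycan, which binds laminin alpha chains, fell by 0.47 (SE 0.028, edgeR adjusted p 5.94e-18, corrected -0.21) with dTAG-13 and by 0.67 (SE 0.029, adjusted p 1.59e-22, corrected -0.36) with doxycycline present. The counts there were 5 higher and 3 lower, and 7 higher and 4 lower, while with library size only the first was 9 and 2. The tetraspanin gene Cd9 rose by 0.38 (corrected 0.08) without doxycycline, and Cd151 by 0.38 (corrected 0.28) with it. Doxycycline against control gave 5 higher and 3 lower (5 and 1 with library size only, 5 and 5 after correction), with Cd47 at 0.35 and Mrc2, a collagen uptake receptor, at 0.33. Between the dTAG-13 groups 2 rose and 2 fell, with Cd44 at -0.19 and Dag1 at -0.17, and for the interaction 2 were higher and 5 lower (0 and 6 with library size only, 3 and 4 with RLE size factors or after correction, 2 and 3 with DESeq2), with Mrc2 at -0.33 and Ddr1 at -0.26.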

How the data were processed

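RNA of 12 libraries was measured by poly(A) sequencing. Values were read counts per Entrez gene, in 1 table deposited by the authors without normalization. The submitters' processing notes name mm10, bcl2fastq 2.17 and featureCounts, and per the file headers reads were aligned with Subread. No source used here gives the annotation, strand or handling of multi-mapping reads. Symbols came from RefSeq GRCm38.p6 (25275 IDs) and GENCODE M21 (17 IDs), and 1887 IDs had none.

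Tests used edgeR 4.0.16 in R 4.3.3: filterByExpr by group (12910 genes), TMM factors, 1 mean per group over all 12 libraries, and the robust quasi-likelihood F test, two-sided, with Benjamini-Hochberg adjustment over all tested genes. CPM used TMM-scaled library sizes, and lengths were those of the longest GENCODE transcript. The SE was derived from the F statistic.

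Alternatives were RLE size factors, library size only, DESeq2 1.42.0, no filter, 1 CPM in 3 libraries, only the groups compared, the replicate block, an offset for length and GC content (splines, 5 degrees of freedom each), these last together, and each library left out. The code was tested on simulated data. Replicates of a group differed by more than sampling noise (chi-square per degree of freedom 2.427 to 8.798).

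Given in full were, per family and comparison, up to 2 called genes with the largest rise and 2 with the largest fall, with at least 1 CPM and no overlap between groups, plus set chains and, per list, the 2 largest called changes. Some genes that meet the rule are not reported here. The 42 genes, the lists and this rule were chosen with earlier results of these data known. Tables were made in Python 3.11.15 with pandas 2.3.3, numpy 2.4.6 and matplotlib 3.10.9.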

Additional observations from a re-analysis of the deposited data

Results flagged for a closer look

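For 16 of the 42 genes the dTAG-13 difference with doxycycline departed from that without it by the edgeR interaction term, which is a difference between cultures with 1 biological sample per group. The interaction values on the log2 scale were -0.92 for Itgb4, -0.61 for Itga7, -0.55 for Itgb8, -0.52 for Col5a3, -0.51 for Itgb2, -0.39 for Col6a1, -0.38 for Itgb7, -0.34 for Col16a1, -0.30 for Col5a2, -0.23 for Col18a1, -0.21 for Col4a1, -0.20 for Itgav, -0.17 for Col4a2, -0.15 for Col3a1, -0.12 for Col5a1 and 0.14 for Col6a3. The calls of Itga7, Itgb8 and Col5a1 were lost with DESeq2, and after the length and GC correction Itgb8 (-0.44, adjusted p 0.0744) and Col5a1 (-0.04, adjusted p 0.534) were not called either. With single libraries left out, Itga7 (-0.74 to -0.50) was lost without 8 of the 12: control replicates 1, 2 and 3, doxycycline replicates 2 and 3, replicate 1 of both agents and dTAG-13 replicates 1 and 3. Itgb8 (-0.62 to -0.44) was lost without control replicate 3, doxycycline replicate 1, replicate 1 or 3 of both agents or dTAG-13 replicate 2. Col5a1 (-0.14 to -0.10) was lost without replicate 3 of control, doxycycline or dTAG-13, or replicate 2 or 3 of both agents. Col5a3 (-0.61 to -0.38) was lost without replicate 3 of both agents. No group had enough libraries for a search for outlying values.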

How the results depend on the processing

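The number of members called in either direction lay within 1.5 times of that reported in every alternative, except for dTAG-13 in the presence of doxycycline. There 23 called became 15 after the length and GC correction, and 16, within 1.5 times, with the replicate block added. Totals hide direction: for dTAG-13 against control 10 higher and 17 lower became 19 and 8 after that correction, with Itga2b among the higher in both. Leaving out single libraries gave 16 to 20, 22 to 27, 23 to 24, 11 to 14 and 14 to 15 called members in the 5 comparisons, in the order doxycycline, dTAG-13, dTAG-13 with doxycycline, doxycycline with dTAG-13, and interaction.

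Changes of sign after the length and GC correction are listed only for genes called before or after it. Genes called in neither fit also changed sign, such as Lama3 for dTAG-13 against control (-0.37 to 0.05). Among the genes called, signs turned for dTAG-13 against control in Col16a1 (0.21), Col27a1 (0.44), Col3a1 (0.07), Col5a2 (0.16), Col5a3 (0.33), Col7a1 (0.24), Col8a1 (0.04) and Itga3 (0.00). With doxycycline they turned in Col18a1 (0.27), Col7a1 (0.47), Col8a1 (0.02), Itga3 (0.00), Itgb4 (0.03) and Lamb2 (0.40). The values of these called genes were the same with the replicate block added, but 0.48 for Col7a1 with doxycycline. With library size only, Col8a1 was 0.02 for dTAG-13 against control.

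In the lists, library size only gave 14 called collagen processing genes in place of 9 between the dTAG-13 groups and 6 adhesion genes in place of 11 for the interaction. Leaving out single libraries gave 8 to 15 adhesion genes between the dTAG-13 groups (14 with all), the lowest without dTAG-13 replicate 2, and 7 to 10 for the interaction. It gave 4 to 7 non-integrin receptors for the interaction, the lowest without control or doxycycline replicate 2. Proteases called for the interaction went from 11 to 7 after the length and GC correction, with or without the block. The cause of these changes was not tested.

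Same-numbered libraries of different groups did not deviate together (correlations of -0.021 to 0.08 over 18 pairs, 3 of 12 libraries closest to their own number), so the numbers do not pair them. With the replicate block 18, 27, 23, 13 and 16 members were called. Depth limits Itga8, Itga2b, Itgae, Col9a3, Col11a2, Col20a1 and Col22a1, which fell under 10 counts in some libraries. The interaction could not be fitted on only the groups compared, since it uses all 4.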
